A study of Mus musculus with 28 samples.

Results

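The respiratory chain and ATP synthase of the mitochondrial inner membrane are built from subunits of dual genetic origin, and the transcripts of these subunits were followed here through the first week of reprogramming of mouse embryonic fibroblasts (MEFs). Members were chosen by gene name: the mt-Nd, mt-Co, mt-Atp and mt-Cytb genes of mitochondrial DNA, and the nuclear Ndufa, Ndufb, Ndufc, Ndufs, Ndufv, Sdha to Sdhd, Uqcr, Cox4 to Cox8 and Atp5 genes, without assembly factors and pseudogenes. This gave 97 of the 50600 genes in the table, 13 mitochondrially encoded and 84 nuclear-encoded. By complex, the mitochondrial genes comprised 7 of complex I, 1 of complex III, 3 of complex IV and 2 of complex V. The nuclear genes comprised 35 of complex I, 4 of complex II, 8 of complex III, 20 of complex IV and 17 of complex V. The name rule also took in Atp5s and Atp5sl, which are not stable subunits of the ATP synthase, and Ndufa4 was counted with complex IV, where its protein is now placed.

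RNA sequencing covered 28 libraries in 14 groups of 2. All cells were MEFs labelled wild type; the methods of the study describe MEFs from E13.5 embryos that carry an Oct4-GFP reporter (OG2), bred with 129 females, and do not tie libraries to embryos. The first group was untreated MEFs and the second was MEFs given SB203580, an inhibitor of the p38 stress kinase (p38i MEFs). The other 12 groups were infected with retroviruses for Oct4, Klf4 and Sox2 (OKS) and grown in the defined medium iCD1, and were harvested at day 1, 3, 5 or 7. In the control arm the labels name OKS alone, and the methods name DMSO as the control. In the p38i arm SB203580 was present during reprogramming, and in the pre-p38i arm the MEFs received it beforehand. Nothing states that the 2 libraries of a group came from separate cultures, so p-values measure the spread between libraries, which may be technical. These are bulk samples, in which a change in cell makeup and a change per cell cannot be told apart.

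Complex I (NADH dehydrogenase) and complex II (succinate dehydrogenase) feed electrons to ubiquinone, complex III (cytochrome bc1) passes them on to cytochrome c, and complex IV (cytochrome c oxidase) hands them to oxygen. Complexes I, III and IV pump protons, and complex V (ATP synthase) uses the proton gradient to make ATP. Complex II alone has no mitochondrially encoded subunit. Mitochondrial DNA is transcribed from both strands into long precursors that are cut at tRNAs, whereas each nuclear subunit has its own promoter, so the members of one complex answer to separate transcription systems. Pluripotent cells are known for a greater reliance on glycolysis than fibroblasts.

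The deposited values are whole numbers read as TPM, transcript levels per length scaled to a fixed total, and library totals lay between 991287 and 992537. Sequencing depth is unknown from such values. As the cell type label states, 9 of 9 fibroblast markers (Col1a1, Col3a1, Pdgfra and others) were listed in untreated MEFs and in every other group. Their summed level was 15837 and 16639 in the 2 libraries of untreated MEFs and had dropped by day 7 to 3728 and 3915 in the control. At that time it was 2656 and 2797 after pretreatment and 5054 and 5080 with p38i present. Not every fibroblast marker followed the sum. From untreated MEFs to the control at day 7, Dcn went from 7 and 7 to 104 and 102. Col3a1 went from 247 and 284 to 292 and 313, and the other fibroblast markers were lower at day 7. The 6 pluripotency markers summed to 0 in untreated MEFs, 73 and 82 in the control at day 7, and 8 and 10 in p38i, with 130 and 134 in pre-p38i. The 9 macrophage markers summed to 277 and 287 in untreated MEFs. In the control they summed to 242 and 248 at day 1 and to 404 and 420 at day 3. Control sums were 401 and 411 at day 5 and 191 and 201 at day 7. At day 7 they were 185 and 212 in p38i and 33 and 44 in pre-p38i. Behind the similar sums of control and p38i at day 7, 4 of 8 tested macrophage markers were lower in p38i and 1 was higher. Lyz2 alone was at 98 and 109 in the control and at 135 and 113 in p38i. From untreated MEFs to the control at day 7, Cd68 went from 20 and 17 to 36 and 33. Adgre1 went from 4 and 5 to 8 and 9, while Csf1r, Cd14, Lyz2, C1qa, C1qb and C1qc were lower at day 7. The 10 muscle markers summed to 202 and 205 in untreated MEFs and to at most 6 at day 7 in all 3 arms, with Myod1, Myog and Ckm at 0 throughout, and the 3 endothelial markers never summed above 9. Marker sums thus moved with time and treatment, and their part in the results below was not tested.

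Reading the mitochondrial genes needs their sequence context. On the mitochondrial chromosome of GRCm38, mt-Atp8 ends inside mt-Atp6, and mt-Nd4l ends inside mt-Nd4, so a read from these stretches belongs to both genes. mt-Nd6 (13552 to 14070, minus strand) also overlaps the end of mt-Nd5 (11742 to 13565, plus strand), and since no source used here states a stranded library, reads there cannot be told apart either. Both strands are transcribed, so the strand of the other mt-Nd6 reads is unknown too. The 2 overlaps between genes of the same strand are shown with 30 bases on each side, heavy strand genes 5′ to 3′ on the plus strand, with the shared bases in capitals.
mt-Atp8 and mt-Atp6, shared 43 bases, chrMT:7897-7999: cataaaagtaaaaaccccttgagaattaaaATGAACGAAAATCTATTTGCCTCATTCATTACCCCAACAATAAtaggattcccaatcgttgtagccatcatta
mt-Nd4l and mt-Nd4, shared 7 bases, chrMT:10137-10203: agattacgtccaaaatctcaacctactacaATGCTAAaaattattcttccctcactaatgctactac

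Another source of uncertainty is a block of mitochondrial sequence copied into nuclear chromosome 1. Of the 13 mitochondrial genes, 6 have a near-identical annotated copy (at least 95% identity over at least 200 bases) with a mean level of 1 or more, and reads can be assigned to either. For mt-Co2 more was listed at the copy than at the gene, with mean levels of 6964 at Gm28661 and 807 at mt-Co2. For mt-Nd3 the gene was listed at 0 in one library of the control at day 1 and at 519 in the other, while the sum of gene and copy Gm28438 was 1420 and 1743. Values of mt-Co2, mt-Co3, mt-Nd3 and mt-Atp6 are thus uncertain as listed and are given with their copies added. The 7 genes mt-Nd1, mt-Nd2, mt-Nd4, mt-Nd5, mt-Nd6, mt-Cytb and mt-Atp8 had no copy listed at a mean of 1 or more. Because the libraries were made with oligo-dT, a transcript's poly(A) tail also bears on its level, and the light strand gene mt-Nd6 carries little or none.

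Mitochondrial transcripts rose at the onset of reprogramming, peaked at day 3 in the control and then declined, whereas the summed nuclear subunits stayed nearly level. In untreated MEFs the 13 mitochondrial genes made up 2.11% and 1.92% of the library total. In the control arm the share was 3.02% and 3.11% at day 1, 5.13% and 5.51% at day 3, 4.78% and 4.5% at day 5, and 3.59% and 3.99% at day 7. Each day's pair lay apart from that of the day before. The 84 nuclear genes together took between 1.69% and 2.11% of the total in every one of the 28 libraries.

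The 3 arms lay apart from day 3 on. In p38i the mitochondrial share was 3.01% and 3.26% at day 1, 6.06% and 6.12% at day 3, 6.04% and 5.95% at day 5, and 5.70% and 4.84% at day 7. In pre-p38i it was 3.21% and 3.88% at day 1, 4.72% and 4.47% at day 3, 3.72% and 3.70% at day 5, and 3.19% and 3.02% at day 7. From day 3 on, each p38i library lay above both control libraries of its day and each pre-p38i library below both. With the chromosome 1 copies added, the same order held at days 3, 5 and 7. The shares with copies at day 7 were 7.21% and 7.02% in p38i, 5.30% and 5.74% in the control, and 4.41% and 4.11% in pre-p38i. The median level of the mitochondrial genes over that of the nuclear genes, as a mean of log2 ratios, went from 2.73 in untreated MEFs to 3.16, 4.09, 4.00 and 3.57 in the control at days 1, 3, 5 and 7. At day 7 it was 4.06 in p38i and 3.22 in pre-p38i, a difference of -0.353 between pre-p38i and the control. Without mt-Nd6 and both overlapping pairs that difference of medians became 0.0199, whereas the log2 ratio of the summed levels of the same genes was -0.08 in pre-p38i and 0.24 in the control. Over all 13 genes with copies added, the log2 ratio of sums was 0.98 and 1.41. No p is given for shares or ratios, which sum over the members.

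**Figure D1:**
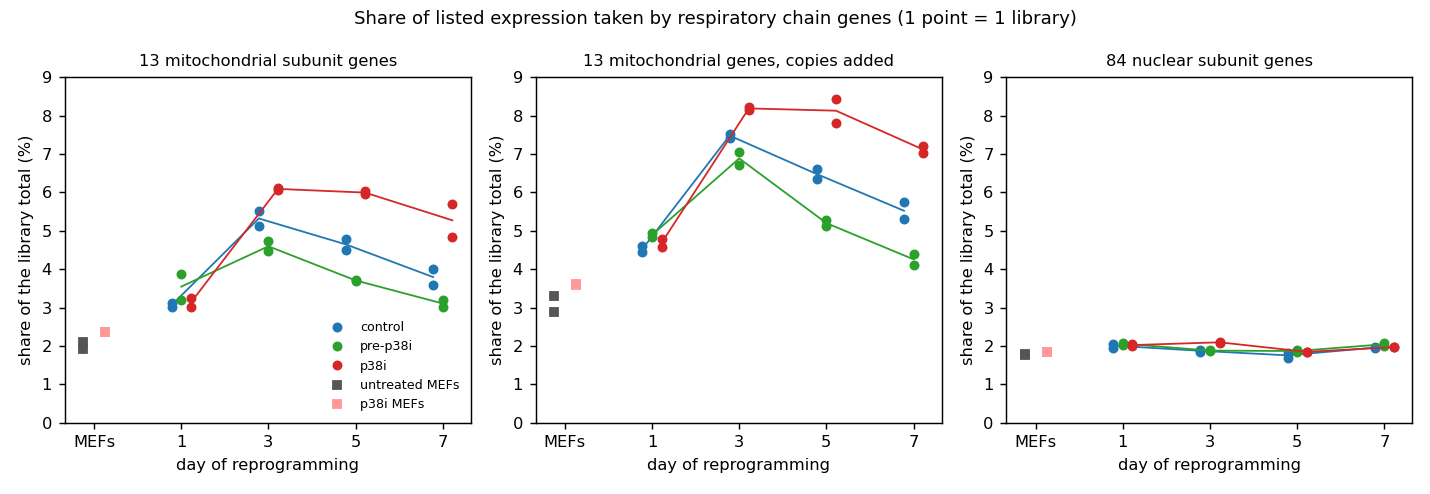
Percent of each library's total taken by the 13 mitochondrial genes as listed (left), with their chromosome 1 copies added (middle) and by the 84 nuclear genes (right), against day of reprogramming; each point is 1 library and lines join the means of 2. The mitochondrial share peaks at day 3 in the control and pre-p38i arms, stays higher in p38i, and the nuclear share stays between 1.69% and 2.11%.

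Across the whole series each mitochondrial gene ranged widely and most nuclear genes did not. The highest group mean was 2.53 to 5.85 times the lowest for the 13 mitochondrial genes as listed, with a median of 3.06. The ends of that range were mt-Co2 and mt-Nd3, whose values are uncertain as listed. With the copies added the range was 2.02 to 4.81 and the median 2.78. For the 77 nuclear genes whose lowest group mean was at least 1, the median was 1.48, 39 spanned less than 1.5 times and 8 spanned at least 2 times. Those 8 were Cox6b2, Atp5s, Atp5g2, Atp5sl, Ndufa4, Ndufa1, Ndufb4 and Ndufc1. With its copy Gm10175 added, Atp5g2 spanned 1.41 times.

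The step from untreated MEFs to the control at day 1 takes in infection, OKS, the iCD1 medium, DMSO and time together. By limma on the log2(value + 1) scale at an adjusted p under 0.05, 10 of the 13 mitochondrial genes rose and none fell, beside 36.6% of all 13230 genes tested that rose and 18.9% that fell. The median mitochondrial difference was 0.58 on the log2 scale, against 0.14 over all genes, a median that quantile normalization moved to -0.07. mt-Nd2, a complex I subunit of the membrane arm, was listed at 711 and 596 in untreated MEFs and at 1165 and 1167 at day 1 (log2 difference 0.84, SE 0.07, adjusted p = 7.4e-09). mt-Co1, the catalytic subunit of complex IV, went from 5101 and 4379 to 7113 and 7222 (0.60, SE 0.06, adjusted p = 1.2e-07). mt-Co2, mt-Co3 and mt-Nd3 did not pass as listed, and of these mt-Nd3 alone did not pass with its copy added.

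From day 1 to day 3 of the control, a comparison added after the values were seen, 10 of 13 rose as listed and 13 of 13 with the copies added, beside 20.5% of all genes that rose and 24% that fell. The median difference over the mitochondrial genes as listed was 0.94, against -0.01 over all genes. mt-Nd2 reached 2465 and 2420 (log2 difference 1.07, SE 0.07, adjusted p = 5.6e-10). mt-Cytb, the catalytic core of complex III, went from 2263 and 2341 to 4288 and 4566 (0.94, SE 0.08, adjusted p = 4.7e-09). mt-Nd4, also of the membrane arm of complex I, went from 1589 and 1617 to 3200 and 3275 (1.01, SE 0.07, adjusted p = 1e-09). At the light strand gene mt-Nd6, where the strand of the reads is unknown, the level went from 586 and 554 to 1070 and 1059 (0.90, SE 0.10, adjusted p = 5.6e-07). Over the same step 5 of 8 tested macrophage markers rose and none fell. Of 9 fibroblast markers 3 rose and 4 fell, and 1 of 4 tested pluripotency markers rose. The part of these markers was not tested.

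From day 3 to day 7 of the control, likewise added, 9 of 13 mitochondrial genes fell and none rose, with 12 of 13 falling once the copies were added, beside 23.4% of all genes that rose and 19.6% that fell. mt-Nd4 dropped to 2052 and 2302 (log2 difference -0.57, SE 0.07, adjusted p = 3.4e-06) and mt-Nd6 to 662 and 743 (-0.60, SE 0.10, adjusted p = 8.9e-05). Levels at day 7 had not returned to those of day 1, since 9 of 13 genes were higher at day 7 than at day 1 and none lower, beside 28.4% of all genes higher and 26.1% lower. The largest difference from day 1 to day 7 among the genes with no listed copy was that of mt-Nd2, at 1735 and 1912 on day 7 (0.64, SE 0.07). From day 3 to day 7, 3 of 8 tested macrophage markers and all 9 fibroblast markers fell and none rose. All 4 tested pluripotency markers rose over that step, and the part of these markers was not tested.

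**Figure D2:**
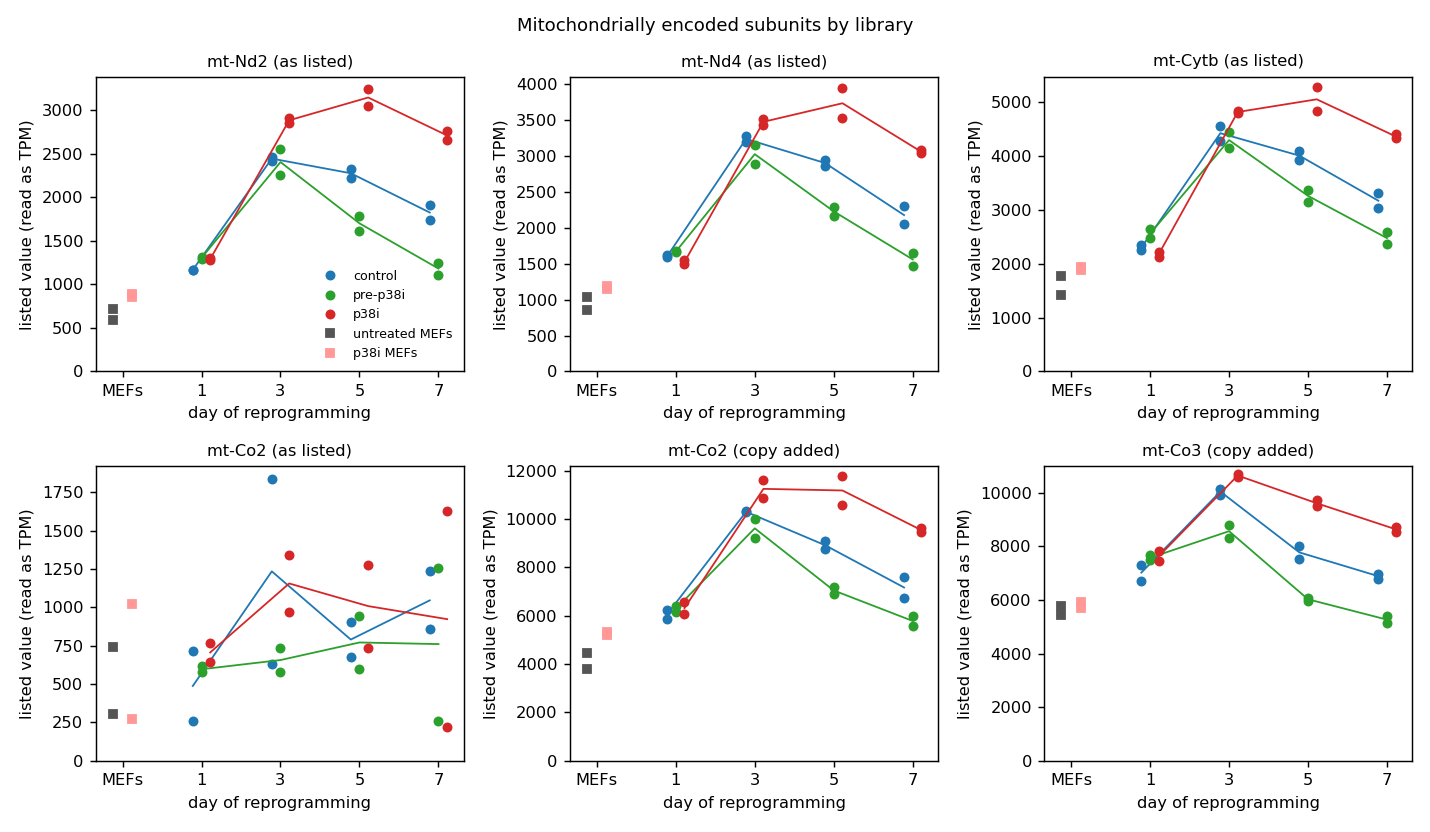
Listed levels (read as TPM, linear axes from 0) of 4 mitochondrial genes as deposited, and of mt-Co2 and mt-Co3 with the chromosome 1 copy added, by day and arm; points are libraries and lines join means of 2. mt-Co2 as listed scatters between 220 and 1837, and with its copy added it follows the course of mt-Nd2, mt-Nd4 and mt-Cytb.

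p38i during reprogramming left the mitochondrial genes at the control level on day 1 and higher later. On day 1, by limma, none of the 13 passed in either direction at an adjusted or an unadjusted p under 0.05, beside 3.47% of all genes higher and 12.6% lower in p38i. On day 3 mt-Nd2 alone passed and was higher (1 of 13; 5.22% of all genes higher, 16.2% lower), and it did not pass when any 1 of the 4 libraries was left out. On day 5, 9 of 13 were higher and none lower (7.87% and 18.7% of all genes), and on day 7, 10 of 13 were higher and none lower (16.5% and 17.6%). With copies added these counts were 12 of 13 on both days. The medians were 0.31 on day 5 and 0.40 on day 7, against -0.08 and 0 over all genes.

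On day 7 mt-Nd2 was listed at 2755 and 2661 in p38i and at 1735 and 1912 in the control (log2 difference 0.57, SE 0.07, adjusted p = 7.1e-06). mt-Nd4 was at 3036 and 3079 against 2052 and 2302 (0.49, SE 0.07, adjusted p = 3.4e-05). mt-Cytb was at 4404 and 4329 against 3032 and 3313 (0.46, SE 0.08, adjusted p = 9.4e-05). The 2 groups did not overlap for any of the 3. On the same day 4 of 9 fibroblast markers were higher in p38i than in the control and none lower. Of 8 tested macrophage markers 1 was higher and 4 lower, and all 4 tested pluripotency markers were lower. On day 5 the markers stood otherwise: 3 fibroblast markers were higher and 5 lower (all genes 7.87% and 18.7%). There 1 macrophage marker was higher and 6 lower, and 1 pluripotency marker was lower. The part of these markers was not tested on either day. One p38i library of day 5 stood apart with 843 for each ribosomal RNA of the mitochondrion, mt-Rnr1 and mt-Rnr2, where all other libraries listed 48 to 372, and without it 8 of 13 mitochondrial genes were called on day 5. Fitting only the groups compared left 0 of 13 called on day 5 and 4 of 13 on day 7, and quantile normalization left 2 and 7. Quantile normalization also turned the sign of mt-Co1 (-0.16) and mt-Atp8 (-0.04) on day 5 and of mt-Atp8 (-0.10) on day 7.

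p38i given before reprogramming was followed by the opposite difference. By limma no mitochondrial gene passed on day 1 (1 of 13 at an unadjusted p under 0.05), beside 5.4% of all genes higher and 6.24% lower in pre-p38i. On day 3, 1 of 13 was lower (mt-Atp8; 13.8% of all genes higher, 6.87% lower). On day 5, 9 of 13 were lower and none higher, beside 14.3% of all genes higher and 11.3% lower, and on day 7 again 9 of 13 were lower and none higher, beside 15.4% and 14.5%. With copies added the counts were 11 and 13 of 13. The medians were -0.33 and -0.38, against 0.04 and 0.05 over all genes.

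On day 7 mt-Nd2 was listed at 1250 and 1111 in pre-p38i (log2 difference from the control -0.63, SE 0.07, adjusted p = 2.4e-06). mt-Nd4 was at 1649 and 1470 (-0.48, SE 0.07, adjusted p = 5.2e-05). mt-Cytb was at 2590 and 2364 (-0.36, SE 0.08, adjusted p = 0.00137). All 3 lay below both control libraries. On that day all 9 fibroblast and all 8 tested macrophage markers were lower than in the control, and 2 of 4 tested pluripotency markers were higher. Markers were already lower on earlier days. On day 1, 5 fibroblast markers were lower and 1 higher, and 7 macrophage markers were lower (6.24% of all genes lower). On day 3, 8 fibroblast and 6 macrophage markers were lower (6.87% of all genes lower). The part of these markers was not tested. Fitting only the groups compared left 3 of 13 called on day 5 and 0 on day 7, and under quantile normalization mt-Nd1 turned sign on day 5 (0.05). Both treated arms are set against the same control libraries of each day, so their differences from it are not independent of each other.

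The treated arms were therefore also compared directly, without the control in the contrast. Their differences from the control were compared over time as well. On day 7, 10 of 13 mitochondrial genes were higher in p38i than in pre-p38i, none was lower, and 13 of 13 were higher with copies added (24.8% of all genes higher, 29.5% lower). The median difference was 0.75 and that of mt-Nd2 was 1.20 (SE 0.07, adjusted p = 7e-11). Tested as an interaction, the difference of p38i from the control was larger on day 7 than on day 1 for 9 of 13 genes and smaller for none, beside 14.1% and 7.55% of all genes. For pre-p38i it was lower on day 7 than on day 1 for 8 of 13 and higher for none, beside 7.25% of all genes higher and 9.43% lower. Both interactions use the same control libraries, so they too are not independent of each other.

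MEFs that received SB203580 without OKS had more mitochondrial transcript than untreated MEFs. Of the 13 genes 7 were higher and none lower, beside 9.73% of all genes higher and 8.15% lower. mt-Nd2 was listed at 858 and 885 against 711 and 596 (log2 difference 0.42, SE 0.07, adjusted p = 0.00045). mt-Nd1 was at 2847 and 2806 against 2406 and 2061 (0.34, SE 0.07, adjusted p = 0.00111). The fibroblast markers summed to 12360 and 12538 in p38i MEFs against 15837 and 16639, the macrophage markers to 188 and 194 against 277 and 287, and the muscle markers to 67 and 68 against 202 and 205. Of the tested markers, 5 of 9 for fibroblasts, 6 of 8 for macrophages and 2 of 3 for muscle were lower in p38i MEFs and none higher; their part was not tested. Fitted on these 4 libraries alone, 1 of 13 passed, and 3 passed without the second untreated library.

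The nuclear-encoded genes were called in both directions. Of the 84, 79 had a mean of at least 1 and were tested; the other 5 were Cox4i2, Cox6a2, Cox7b2, Cox8b and Cox8c. At the step to day 1, 35 of 79 rose (44.3%) and 3 fell (3.8%), beside 36.6% of all genes that rose and 18.9% that fell. From day 1 to day 3, while the mitochondrial genes rose, 6 nuclear genes rose (7.59%, beside 20.5% of all genes) and 22 fell (27.8%, beside 24%). From day 3 to day 7, 17 rose (21.5%, beside 23.4%) and 3 fell (3.8%, beside 19.6%). The medians of these last 2 steps were -0.09 and 0.10, small beside the 0.94 and -0.45 of the mitochondrial genes.

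Against the control, 12 nuclear genes were higher and none lower in p38i on day 3, beside 5.22% of all genes higher and 16.2% lower. By day 5 the numbers were 8 and 1 (all genes 7.87% and 18.7%), and by day 7 they were 4 and 6 (16.5% and 17.6%). At day 3 in pre-p38i, 3 were higher and 3 lower (all genes 13.8% and 6.87%). By day 5 there were 14 higher and none lower (14.3% and 11.3%), and at the last time point 16 higher and 2 lower (15.4% and 14.5%). On day 1 the numbers were 1 higher and 1 lower for p38i (all genes 3.47% and 12.6%), and 4 higher and 1 lower for pre-p38i (5.4% and 6.24%). Between the treated arms on day 7, 11 of 79 were higher in p38i and 24 lower (13.9% and 30.4%), beside 24.8% of all genes higher and 29.5% lower. In p38i MEFs against untreated MEFs 8 were higher and 1 lower (all genes 9.73% and 8.15%).

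**Figure D3:**
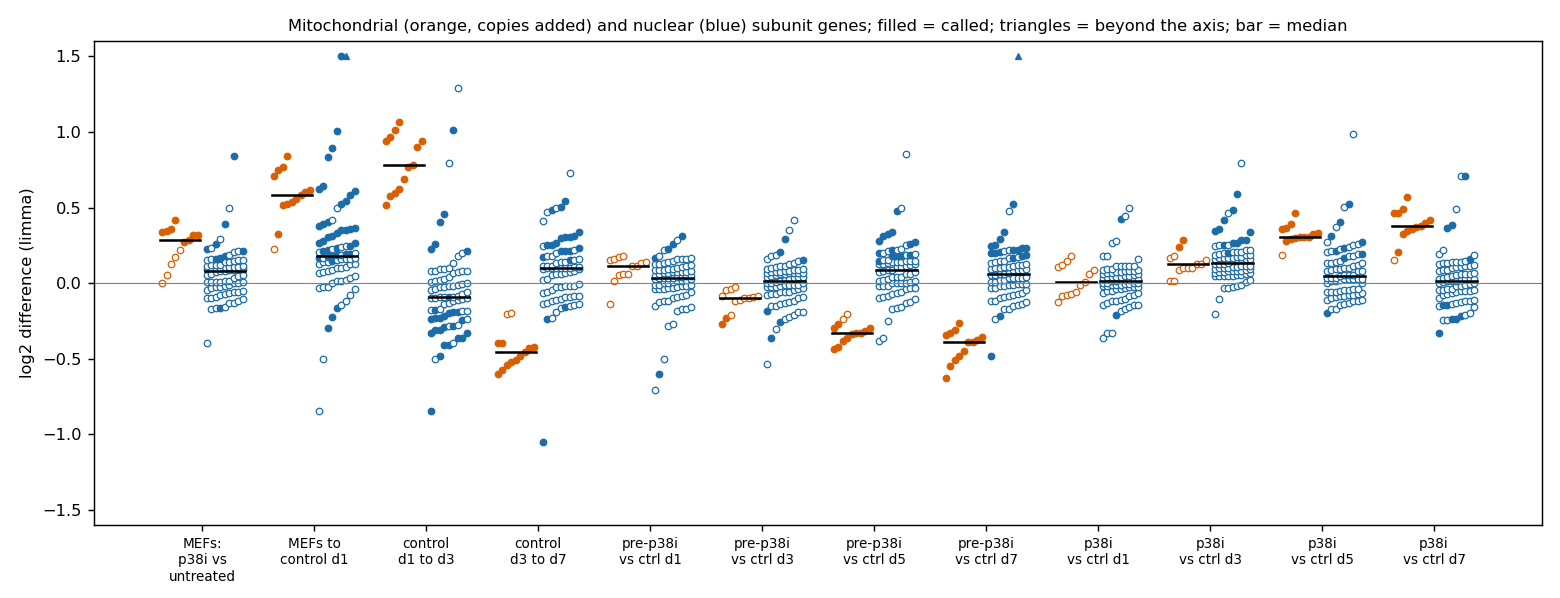
Log2 differences from limma for the 13 mitochondrial genes (orange, chromosome 1 copies added) and the 79 tested nuclear genes (blue) in 12 comparisons; filled points were called at an adjusted p under 0.05, triangles lie beyond the axis, bars are medians. The mitochondrial genes move as a group up to day 3, down to day 7, below 0 in pre-p38i and above 0 in p38i on days 5 and 7, while the nuclear medians stay near 0, apart from the step to day 1 and p38i on day 3.

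Among the nuclear complex I genes, 17 of 35 rose at the step to day 1 (48.6%) and none fell, beside 36.6% and 18.9% of all genes. Ndufa1, an accessory subunit of the membrane arm encoded on the X chromosome, went from 77 and 104 to 148 and 174 (log2 difference 0.84, SE 0.14, adjusted p = 4.8e-05). The core subunit genes Ndufs1, Ndufs7, Ndufs8, Ndufv1 and Ndufv2, whose products carry flavin or iron-sulfur clusters, did not pass at this step. In the comparison of p38i with pre-p38i on day 7, Ndufs1, Ndufs8, Ndufv1 and Ndufv2 were lower in p38i and Ndufs7 did not pass. Of all 35 nuclear complex I genes, 9 were lower there and 4 higher, beside 29.5% of all genes lower and 24.8% higher. Ndufs1 was listed at 90 and 82 in p38i against 109 and 106 (-0.32), and Ndufv2 at 141 and 123 against 169 and 174 (-0.38).

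Ndufb8, an accessory subunit whose protein is a usual marker of assembled complex I, was the nuclear complex I gene that fell furthest in p38i on day 7. It was listed at 253 and 264 in p38i, 326 and 324 in the control and 338 and 352 in pre-p38i. The difference from the control was -0.33 (SE 0.06, adjusted p = 0.00029) and passed in every alternative run. Ndufb10 was higher in p38i MEFs than in untreated MEFs, at 193 and 192 against 149 and 144 (0.39, SE 0.08, adjusted p = 0.00151), and again in p38i at day 1, at 238 and 206 against 154 and 176 (0.43, SE 0.08). Ndufa12 was higher in p38i on day 3, at 265 and 262 against 172 and 178 (0.59, SE 0.10, adjusted p = 0.00026), and Ndufv3 at 190 and 197 against 130 and 147 (0.48, SE 0.12).

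Complex II is wholly nuclear and also an enzyme of the citric acid cycle. Its flavoprotein gene Sdha rose from 146 and 149 to 197 and 187 at the step to day 1 (log2 difference 0.38, SE 0.05, adjusted p = 6.1e-06), and Sdhb, the iron-sulfur subunit, from 161 and 164 to 188 and 180 (0.18). The membrane anchors Sdhc and Sdhd did not pass there. In p38i MEFs Sdha, Sdhb and Sdhc were higher than in untreated MEFs, which made 3 of the 8 nuclear genes that rose. In that comparison 9.73% of all genes were higher and 8.15% lower. Sdhd fell from 155 and 161 at day 1 to 123 and 131 at day 3 of the control (-0.31).

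Of the 8 nuclear complex III genes, 6 rose and 1 fell at the step to day 1, where 36.6% of all genes rose and 18.9% fell. Uqcrb, a small subunit close to the ubiquinone site, went from 285 and 300 to 424 and 455 (log2 difference 0.59, SE 0.06, adjusted p = 9e-08) and back to 294 and 335 at day 3 (-0.48, SE 0.06, adjusted p = 2.4e-06). Uqcrc1, a core protein that is not a redox center, was the one that fell, from 323 and 330 to 296 and 286 (-0.17), and it fell further to 241 and 237 at day 3 (-0.28). Uqcrfs1, the Rieske iron-sulfur protein, was at 159 and 155 in p38i on day 7, 178 and 170 in the control and 202 and 193 in pre-p38i, with both differences from the control passing (-0.15 and 0.18).

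Complex IV held the largest changes of any nuclear gene, and these lay in genes that have isoforms. Cox6b2, the form of subunit 6b known from testis, was listed at 4 and 5 in untreated MEFs and at 119 and 130 in the control at day 1, a ratio of means of 27.7 (log2 difference 4.52, SE 0.15, adjusted p = 9.6e-16). It went on to 261 and 243 at day 3 (1.01), 181 and 156 at day 5, and 137 and 107 at day 7 (-1.05 from day 3). This course, up to day 3 and down afterwards, was the shape seen for the mitochondrial genes.

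Cox6b2 also separated the arms. In p38i it was listed at 106 and 92, 297 and 289, 259 and 225, and 191 and 207 on days 1, 3, 5 and 7. In pre-p38i it was at 159 and 145, 232 and 209, 133 and 128, and 109 and 109 on the same days. It was higher in p38i than in the control on days 5 and 7 (0.52 and 0.71) and did not pass in pre-p38i on any day, and its difference between p38i and control changed by 1.04 from day 1 to day 7 (SE 0.21, adjusted p = 0.00117). The common form Cox6b1 stayed between 364 and 512 in all libraries, so it remained the more abundant form throughout.

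Ndufa4, which binds complex IV, rose at the step to day 1, from 365 and 366 to 683 and 790 (log2 difference 1.01, SE 0.07, adjusted p = 5.2e-10). It was higher still in pre-p38i at day 1, at 906 and 856 (0.26), and lower than the control there by day 7, at 520 and 509 against 621 and 578 (-0.22). That change of its pre-p38i difference from day 1 to day 7 passed (-0.48, SE 0.11, adjusted p = 0.0034). Its paralog Ndufa4l2, known as a hypoxia-inducible gene, was listed at 47 and 27 in pre-p38i at day 7 and at 0 to 2 in each of the other 26 libraries. Its log2 difference of 4.70 (SE 0.46, adjusted p = 2.1e-07) depends on the pseudocount, since the control libraries held 1 and 0.

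Cox7a2l, the supercomplex factor that links complexes III and IV, was higher in p38i than in the control on days 3, 5 and 7. On day 7 it was at 208 and 217 in p38i, 168 and 157 in the control and 142 and 151 in pre-p38i (p38i against control 0.39, SE 0.07, adjusted p = 0.00029). It has a processed copy, Gm6969, with about the same mean level, and with that copy added the day 7 difference was 0.30 and still passed. Cox7a1, the heart and muscle form of 7a, rose from 0 in both libraries of untreated MEFs to 11 and 10 in the control at day 7, when Cox7a2, the common form, was at 129 and 126. The other tissue forms stayed off: Cox6a2, Cox7b2, Cox8b and Cox8c were listed at 0 in all 28 libraries and Cox4i2 at 0 or 1. Cox4i1, the common form of subunit 4, rose from 828 and 782 to 869 and 935 at the step to day 1 (0.16), and Cox6a1 from 656 and 628 to 752 and 792 (0.27). Cox8a was higher in p38i than in the control on days 3, 5 and 7 (0.29, 0.21 and 0.16).

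**Figure D4:**
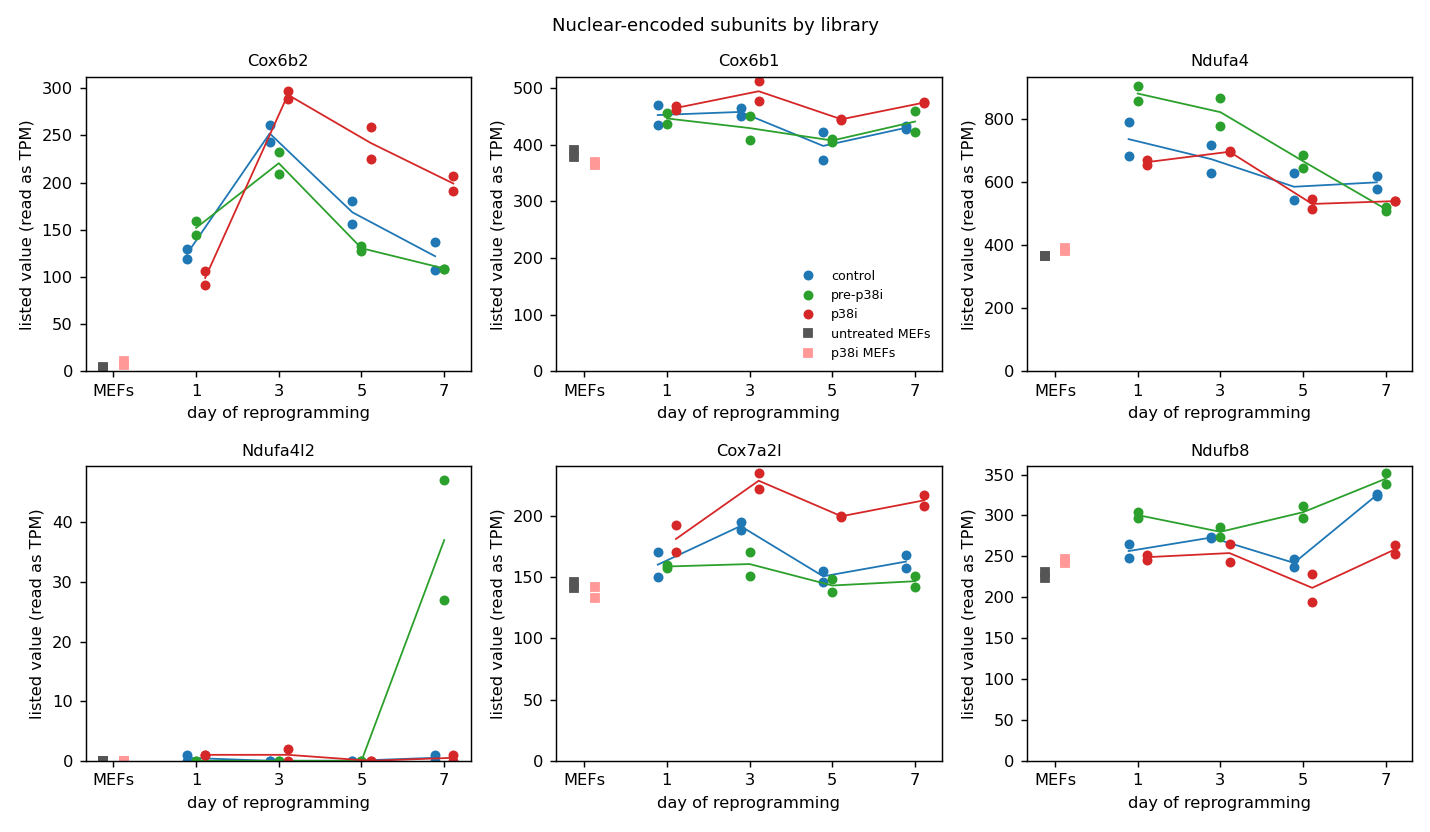
Listed levels (read as TPM, linear axes from 0) of 6 nuclear genes by day and arm; points are libraries and lines join means of 2. Cox6b2 goes from 4 and 5 in untreated MEFs to 297 and 289 in p38i at day 3 while Cox6b1 stays between 364 and 512, Ndufa4l2 is listed above 2 in the 2 pre-p38i libraries of day 7 and in no other, and Cox7a2l is higher and Ndufb8 lower in p38i than in the control at day 7.

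Of 17 nuclear complex V genes, 2 rose and 2 fell at the step to day 1 (11.8% each, beside 36.6% and 18.9% of all genes). Atp5k (0.52) and Atp5g1 (0.21) rose. The catalytic core genes Atp5b (beta subunit, from 1591 and 1575 to 1311 and 1269, log2 difference -0.30, adjusted p = 9.2e-08) and Atp5a1 (alpha subunit, from 652 and 629 to 558 and 540, -0.22) fell, 2 of the 3 nuclear members that did. From day 1 to day 3 of the control 8 of 17 fell and 1 rose (47.1% and 5.88%, beside 24% and 20.5% of all genes), and from day 3 to day 7, 7 rose and none fell (41.2%, beside 23.4% and 19.6%). Those 7 include Atp5sl, which is no stable subunit. In p38i on day 3, 2 of 17 were higher than the control and none lower, beside 5.22% of all genes higher and 16.2% lower. Atp5b reached 1018 and 1030 at day 3 (-0.33, SE 0.03, adjusted p = 3.8e-08) and 1184 and 1186 at day 7 (0.21). Atp5a1 did not keep its fall from day 1 to day 3 (-0.09) under quantile normalization.

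On day 7, 7 of 17 were higher in pre-p38i than in the control and none lower, where 15.4% of all genes were higher and 14.5% lower. In p38i none was higher and 2 were lower, where the shares of all genes were 16.5% and 17.6%. Atp5b was at 1303 and 1352 in pre-p38i (0.16), against 1081 and 1062 in p38i (-0.15, adjusted p = 0.00117). Atp5a1 was at 723 and 732 in pre-p38i (0.20), against 602 and 594 in p38i, where it did not pass against 645 and 620. Of the genes for the membrane ring subunit c, Atp5g1 was at 337 and 332 in pre-p38i against 264 and 234 in p38i (p38i against pre-p38i -0.43, SE 0.08, adjusted p = 8.6e-05), and Atp5g3 at 721 and 791 against 612 and 645 (-0.27). Mitochondrial mt-Atp6, whose product forms the proton channel with that ring, was at 9137 and 9145 in p38i and 5940 and 5512 in pre-p38i with its copy added (0.68), the opposite direction in the same complex. Atp5sl, which is no stable subunit but is 1 of the 7 that were higher in pre-p38i, was at 20 and 24 in pre-p38i. It was at 14 and 16 in the control and 16 and 13 in p38i.

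The promoters of the nuclear genes were read for 3 motifs known from respiratory genes. RefSeq promoters of GRCm38.p6 (300 bases, 250 before to 50 after the start) were matched for 69 of the 84. The NRF1 letters GCATGCGC (or GCGCATGC on the other strand) were in 10 of 69 (14.5%) and in 2.8% of all 27025 promoters. The GABP letters CCGGAAG (or CTTCCGG) were in 15 (21.7%; 9.12% of all), and the YY1 letters AAGATGGC (or GCCATCTT) in 10 (14.5%; 2.88% of all). The promoters of 3 genes are shown 5′ to 3′ on the gene's strand, with motif letters in capitals: the 6b pair that behaved so differently, and Uqcrc1, which fell at the step to day 1 and holds NRF1 letters on both strands, overlapping.
Cox6b2, minus strand, chr7:4753045-4753344: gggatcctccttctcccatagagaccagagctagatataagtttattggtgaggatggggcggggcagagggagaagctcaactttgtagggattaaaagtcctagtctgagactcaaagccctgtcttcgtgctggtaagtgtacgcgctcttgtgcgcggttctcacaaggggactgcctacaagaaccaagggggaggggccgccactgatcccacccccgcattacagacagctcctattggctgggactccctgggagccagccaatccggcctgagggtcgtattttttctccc
Cox6b1, minus strand, chr7:30626065-30626364: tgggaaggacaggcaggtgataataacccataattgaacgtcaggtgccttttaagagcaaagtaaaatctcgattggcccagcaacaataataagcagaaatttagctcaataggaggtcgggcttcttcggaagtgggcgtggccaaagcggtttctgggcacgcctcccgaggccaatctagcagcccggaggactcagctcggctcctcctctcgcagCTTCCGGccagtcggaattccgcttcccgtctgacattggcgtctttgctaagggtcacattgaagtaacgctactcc
Uqcrc1, plus strand, chr9:108936398-108936697: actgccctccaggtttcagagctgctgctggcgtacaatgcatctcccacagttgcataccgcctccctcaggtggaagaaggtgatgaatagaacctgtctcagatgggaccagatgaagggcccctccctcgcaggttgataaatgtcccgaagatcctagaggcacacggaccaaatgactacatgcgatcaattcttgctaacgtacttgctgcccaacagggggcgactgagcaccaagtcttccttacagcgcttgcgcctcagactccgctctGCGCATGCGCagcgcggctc
In the Cox6b2 window none of the 3 motifs was found, in that of Cox6b1 the GABP letters occurred once, and a match of letters is a description and not a bound site.

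Other genes of mitochondrial gene expression were counted in the same comparisons. Shares of all genes that rose and fell were 36.6% and 18.9% at the step to day 1, 20.5% and 24% from day 1 to day 3, and 23.4% and 19.6% from day 3 to day 7 of the control. On day 7, 16.5% of all genes were higher and 17.6% lower in p38i than in the control. For pre-p38i against the control these shares were 15.4% and 14.5%, and for the treated arms against each other 24.8% were higher and 29.5% lower in p38i. Counts of the lists that follow are to be read beside these shares. Of 27 genes for mitochondrial transcription, RNA handling and DNA replication, 1 rose and 8 fell from day 1 to day 3 of the control and 7 rose and none fell from day 3 to day 7, with 5 rising and 5 falling at the step to day 1. On day 7, 1 was higher and 6 lower in p38i than in the control, 5 were higher and none lower in pre-p38i, and between the treated arms 1 was higher and 14 lower in p38i (51.9%, beside 29.5% of all genes). Tfam, which packages mitochondrial DNA and starts its transcription, was at 18 and 30 in p38i and 43 and 41 in pre-p38i on day 7 (log2 difference -0.82, adjusted p = 0.00375). Pnpt1, part of the mitochondrial RNA degradation machinery, was lower in p38i than in the control on day 7 (-0.64) and higher in pre-p38i (0.45).

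Grsf1, an RNA-binding protein of mitochondrial RNA granules, rose throughout the control arm, from 76 and 84 in untreated MEFs to 153 and 154, 186 and 200, 248 and 236, and 331 and 327 at days 1, 3, 5 and 7. On day 7 it was at 208 and 211 in p38i (-0.65, SE 0.05, adjusted p = 4e-09) and at 446 and 443 in pre-p38i (0.43, SE 0.05, adjusted p = 7.3e-07). Its order between the arms was the reverse of that of mt-Nd2.

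Of 78 genes of the mitochondrial ribosome, all tested, 15 rose and 11 fell at the step to day 1, none rose and 26 fell from day 1 to day 3 (33.3%, beside 24% of all genes), and 27 rose and 2 fell from day 3 to day 7 (34.6%, beside 23.4%). On day 7 none was higher and 19 were lower in p38i than in the control (24.4%, beside 17.6%), and pretreatment left 8 higher and 1 lower. Between the treated arms p38i had 4 higher and 37 lower (47.4%, beside 29.5%). Of 43 assembly factors of the complexes, 42 were tested, 17 rose and 3 fell at the step to day 1 (40.5% and 7.14%, beside 36.6% and 18.9%), and on day 7, 2 were higher and 4 lower in p38i and 1 was higher and none lower in pre-p38i. Cyc1, the heme-bearing cytochrome c1 of complex III that the name rule leaves out, was at 155 and 140 in p38i, 165 and 171 in the control and 205 and 217 in pre-p38i on day 7 (-0.19 and 0.33 against the control). Cytochrome c itself, Cycs, was lower than the control in both (-0.44 and -0.30).

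Among 9 inner membrane carriers and organisers, the ADP/ATP carriers parted. Slc25a4, the form typical of heart and muscle, was at 759 and 765 in p38i, 578 and 595 in the control and 441 and 472 in pre-p38i on day 7 (0.38 and -0.36 against the control). Slc25a5, the form of proliferating cells, was lower in p38i (-0.35) and higher in pre-p38i (0.16). Chchd10, a cristae protein, rose from 7 and 9 in untreated MEFs to 105 and 91 at day 1 (3.47, SE 0.12, adjusted p = 3.9e-15) and to 239 and 218 at day 3 in the control. Of the 9, 1 was higher and 2 lower in p38i and 4 were higher and 1 lower in pre-p38i on day 7, beside 16.5% and 17.6% of all genes for p38i and 15.4% and 14.5% for pre-p38i.

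Of 14 regulators of nuclear respiratory genes (of which Esrrb is also a pluripotency marker) 10 were tested, and 1 rose and 5 fell at the step to day 1 (10% and 50%, beside 36.6% and 18.9% of all genes). The one that rose was Esrra, a nuclear receptor that drives respiratory genes, from 25 and 25 to 63 and 53 (1.18). The coactivator Ppargc1a was at or below 1 in the group means throughout. On day 7, 1 was higher and 3 lower in p38i than in the control, and 2 higher and 1 lower in pre-p38i, where 17.6% and 14.5% of all genes were lower. Myc, a driver of growth and of mitochondrial biogenesis genes, was at 19 and 18 in p38i against 43 and 39 (-1.11, SE 0.13, adjusted p = 1.5e-06). In pre-p38i Myc was at 34 and 35. Between the treated arms on day 7, 2 of 10 regulators were higher in p38i and 7 lower, beside 24.8% and 29.5% of all genes. Nrf1 was at 22 and 23 in p38i and 39 and 38 in pre-p38i (-0.75), and Pprc1 at 18 and 16 against 34 and 30 (-0.87). Esrra, at 39 and 43 against 32 and 31, and Hif1a, at 69 and 75 against 60 and 54, lay the other way.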

How the data were processed

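RNA sequencing of 28 mouse libraries, 2 in each of 14 groups, was re-analysed from the deposited expression table. Groups and replicate numbers follow the sample labels. The submitters' processing notes name bcl2fastq, Bowtie2 2.2.5 and RSEM 1.3.0 with the builds mm10 and hg38, and the protocols name oligo-dT selection of mRNA. The values deposited by the authors are whole-number expression scores per gene with nearly equal library totals, made with the tools above. They are read as TPM rounded down, so depth and counting error are unknown. A column of the table is 1 library, and none was left out.

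Differences were tested by limma 3.58.1 in R 4.3.3 on log2(value + 1), with a mean-dependent prior, in 1 model of the 14 groups over 13230 genes (mean 1 or higher), and called at a Benjamini-Hochberg adjusted p under 0.05. A log2 difference on this scale understates the change of low genes. For a single gene, an exact permutation test of 2 against 2 libraries cannot give a two-sided p below 0.333. The script was tested on simulated data. Coordinates and transcripts are those of mm10 (GRCm38); copies were searched with BLAST 2.17.0+ at 95% identity or more over 200 bases or more. Promoters are from RefSeq.

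Members and gene lists were chosen with earlier results of these data known. Named are the mitochondrial genes, the catalytic core and isoform genes, and, per comparison, the 3 nuclear members with the largest rise and fall among called ones whose mean reaches 5 and whose groups do not overlap. From these, and from the lists of assembly factors, mitochondrial transcription and RNA genes, mitochondrial ribosome, regulators, cytochrome c and inner membrane carriers, the text shows a choice made after their values were seen. Alternatives tried were the pseudocount, the filter, 2 other scalings, the libraries in the fit, a replicate block, copies added and each library left out. The values of 1 member are not reported here.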

Additional observations from a re-analysis of the deposited data

Results flagged for a closer look

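The effect of p38i against the control changed from day 1 to day 7, by the test of the difference itself, for 9 of 13 mitochondrial genes and 5 of 79 nuclear genes, beside 14.1% of all genes whose effect moved up and 7.55% down. For Cox6b2 the change was 1.04 on the log2 scale. The effect of pre-p38i changed likewise for 8 mitochondrial and 7 nuclear genes, beside 7.25% up and 9.43% down. That change was 5.2 for Ndufa4l2, whose value depends on the pseudocount, and 1.13 for Atp5sl, which was listed at 24 or less in every library. Both effects use the same control libraries.

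On day 7 the treated arms, compared directly, differed for 10 of 13 mitochondrial and 35 of 79 nuclear genes, beside 24.8% of all genes higher in p38i and 29.5% lower. For Ndufa4l2 p38i minus pre-p38i was -4.7. Groups of 2 libraries allow no test for a library that stands apart.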

How the results depend on the processing

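Depth is unknown from these values, and each group holds 2 libraries. Of 463 summary values under alternatives, 378 kept their call or stayed within 1.5 times, 84 moved and 1 reversed. Of 295 calls of single genes, 128 held under all alternatives. Where a cause is not named, the cause was not tested.

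Fitting only the groups compared, which leaves fewer libraries to estimate the spread, gave these numbers of called genes. For mitochondrial genes it gave 1 for p38i MEFs against untreated MEFs, 0, 3 and 0 for pre-p38i on days 3, 5 and 7, and 1, 2, 0 and 4 for p38i on days 1, 3, 5 and 7. For nuclear genes it gave 1 for p38i MEFs, 23 for the step to day 1, 12, 13 and 14 for control days 1 to 3, 3 to 7 and 1 to 7, 0, 0, 2 and 9 for pre-p38i on days 1, 3, 5 and 7, 0, 7 and 2 for p38i on days 1, 3 and 5, and 3 for the change of the p38i effect.

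Under quantile normalization 0 mitochondrial genes were called on day 3 in both treated arms and 2 in p38i on day 5, while 19 and 15 nuclear genes were called in p38i on days 3 and 5. The share of all calls that were higher moved from 65.9% to 47.5% at the step to day 1, from 66.7% to 50.7% in pre-p38i on day 3, and in p38i from 21.6% to 41.1%, 24.4% to 50% and 29.6% to 52.7% on days 1, 3 and 5. Signs turned for Atp5a1 from control day 1 to 3 (0.00681), mt-Nd1 in pre-p38i on day 5 (0.0453), mt-Atp8 (-0.0433) and mt-Co1 (-0.161) in p38i on day 5, and mt-Atp8 in p38i on day 7 (-0.102).

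With copies added, the mitochondrial share was 3.09% in untreated MEFs, 3.59% in p38i MEFs, 4.53%, 7.48%, 6.48% and 5.52% in the control on days 1, 3, 5 and 7, 4.69%, 8.19%, 8.13% and 7.11% in p38i, and 4.89%, 6.88%, 5.2% and 4.26% in pre-p38i. Totals without the 3 transgenes' genes gave 3.72% in pre-p38i on day 5. Copies added gave 2 mitochondrial calls on day 3 in each treated arm, and a minimum mean of 5 gave 2 for pre-p38i on day 3. Without mt-Nd6 and the overlapping pairs, the log2 ratio of medians moved to 0.144 at the step to day 1, to 0.783 from day 1 to day 3 and to 0.0199 for pre-p38i on day 7. The genes left hold mt-Co2, mt-Co3 and mt-Nd3 as listed, and the log2 ratio of their sums was -0.08 in pre-p38i and 0.24 in the control.

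The replicate block gave 2 mitochondrial calls in p38i on day 3 and moved no other count by over 1.5 times. Deviations between libraries of the same replicate number showed little correlation: over 91 pairs of groups, correlations ran from -0.0838 to 0.0874. They were taken over all tested genes, low ones included, so they cannot show whether same-numbered libraries shared a culture or batch.

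Leaving out 1 library at a time, mitochondrial calls ranged from 3 to 8 for p38i MEFs (3 without untreated MEFs replicate 2), from 0 to 1 on day 1 in both treated arms (1 without control replicate 2), from 0 to 1 for pre-p38i and were 0 for p38i on day 3, and ranged from 5 to 8 for pre-p38i on day 5 (5 without control replicate 1). Nuclear calls ranged from 4 to 6 for p38i MEFs (lowest without p38i MEFs replicate 2), from 24 to 42 at the step to day 1 (24 without control day 1 replicate 2), from 1 to 4, 2 to 5, 5 to 15 and 10 to 12 for pre-p38i on days 1, 3, 5 and 7, and from 2 to 4, 7 to 10, 2 to 12 and 6 to 10 for p38i. They ranged from 2 to 5 for the change of the p38i effect (lowest without control day 7 replicate 1) and from 4 to 7 for that of pre-p38i (lowest without pre-p38i day 7 replicate 2). The lowest nuclear counts came without pre-p38i replicate 1 on day 1, control or pre-p38i replicate 1 on day 3, control replicate 2 on day 5 and control replicate 2 on day 7 in the pre-p38i comparisons. In the p38i comparisons they came without control replicate 1 on day 3, p38i replicate 1 on day 5, and control replicate 1 or p38i replicate 2 on day 7.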
